A study of Homo sapiens with 4 samples.

Results

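Ubiquitin-specific proteases are the largest family of deubiquitinases, the enzymes that take ubiquitin off proteins, and their transcripts were compared between TOV112D cells transfected with HOXD10 and control cells. Members were all genes whose symbol is USP followed by a number, together with USP9X, while USP27X, the USP17L copies and the pseudogene USP41P were left out. The arrays held 47 such genes, measured by 78 probes, of 19090 named genes and 28264 probes in all. USP10 and USP32 were not analysed here. TOV112D cells are a human line derived from an epithelial cancer of the ovary. HD cells received the HOXD10-pCDNA plasmid, in which HOXD10 encodes a homeobox transcription factor, and ND cells were the controls, described in the methods as mock-transfected and in the figure legends as carrying the control plasmid. Each group had 2 single-colour arrays. Whether both arrays of a group come from independent cultures is not stated. The p-values therefore reflect array-to-array spread alone, and that spread may be technical.

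A ubiquitin-specific protease cuts the bond between ubiquitin and a lysine of its substrate with a catalytic triad built around a cysteine. Removing ubiquitin can spare a protein from the proteasome, end a signal carried by the ubiquitin chain or return ubiquitin to the free pool. Several members are best known from cancer biology, among them USP7, which removes ubiquitin from MDM2 and p53, and others act mainly in DNA repair, on histones, at endosomes or on mitochondria.

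Values are normalized Cy5 intensities as deposited, in which nothing lies below 50. The median intensity was 361 on all 4 arrays, and between 4414 and 5579 probes per array sat at 50. The HOXD10 probe was at 50 on all 4 arrays. Where this probe lies relative to the insert of the plasmid is not known, so it checks neither the transfection nor the labels. The paper reports raised HOXD10 mRNA and protein in TOV112D cells given the plasmid, by qPCR and western blot. Whether those assays used the cultures of these arrays is not stated. Of 11 markers of epithelial and ovarian carcinoma cells, CDH1 and MUC16 were at 50 on all 4 arrays, and the summed intensity of the list was 2462 and 2658 in ND cells against 4416 and 3818 in HD cells. Of that list 2 genes rose and 2 fell (limma, adjusted p under 0.05), where 6.67% of all genes rose and 7.97% fell. EPCAM rose from 378 and 360.0 to 1767 and 1469 and KRT8 from 50 on both ND arrays to 99.4 and 103, and KRT19 fell from 665 and 737 to 345 and 297 and CLDN4 from 101 and 92.8 to 62.0 and 57.5. MUC1 was higher by the study's criteria only. Of 5 fibroblast markers none passed the adjusted threshold, and LUM, at 13461 and 13744 in ND and 33247 and 26472 in HD cells, was higher by the study's criteria. Of 3 leukocyte markers PTPRC rose, from 81.1 and 99.1 to 277 and 249.9, and of 3 endothelial markers none passed. The summed intensities of these lists were 21979 and 22561 in ND against 42839 and 36064 in HD cells for fibroblasts, 934 and 1041 against 870.2 and 1059 for leukocytes, and 851 and 659.7 against 489.5 and 538 for the endothelium. Whether changes in the make-up of the cultures had a part in the results below was not tested, and on bulk RNA fewer cells of a type and less RNA per cell cannot be told apart.

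Transcripts of the family were more often higher than lower in HD cells. With each gene represented by its brightest probe, 12 of the 47 genes rose at an adjusted p under 0.05 from limma, or 25.5%, where 6.67% of all 19090 genes rose. None fell, where 7.97% of all genes fell. At an unadjusted p under 0.05 from limma, 21 members were higher and 7 lower, where 16.4% of all genes were higher and 21.5% lower. The risen genes were USP34, USP12, USP46, USP37, USP24, USP6, USP7, USP38, USP9X, USP44, USP13 and USP16, in order of fold change. The study's criteria ask for a log2 difference of 1 or more in either direction and an unadjusted p under 0.05. By them, 11 genes were higher and 0 lower, where 6.16% of all genes were higher and 6.83% lower. The median log2 fold change, HD minus ND, was 0.26 over the 47 genes and -0.05 over all genes, and single members ran from -0.95 for USP11 to 1.47 for USP34.

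On the arrays themselves, both HD values lay above both ND values for 25 of the 47 genes, or 53.2%, where this held for 25.2% of all genes. Both HD values lay below both ND values for 11 genes, or 23.4%, where this held for 37.4% of all genes. The 11 include USP11, USP39, USP4 and USP14, which were among the brightest members. USP49 and USP50 were at 50 on all 4 arrays, and USP29 was above it only on ND replicate 2, at 66.5, so that 44 of the 47 genes were above the lowest value throughout. Between the arrays of a group the members differed little, with a median absolute log2 difference of 0.20 within ND and 0.16 within HD over 70 probes that were above 50 throughout. The widest difference was that of USP15, at 1030 and 438 on its brighter probe in ND cells, and the dim members USP25 and USP26 also differed by more than most there.

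**Figure D1:**
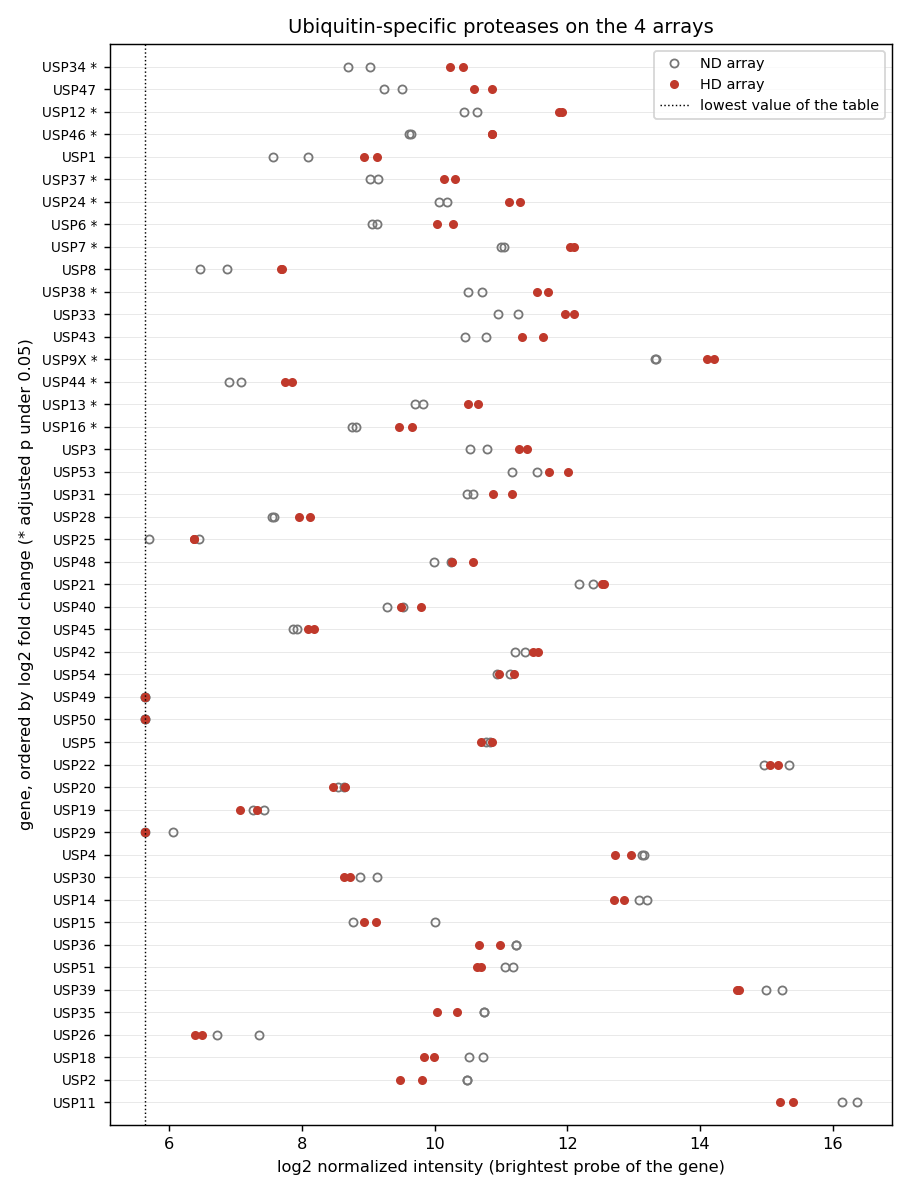
Log2 normalized intensity of the 47 ubiquitin-specific proteases, 1 row per gene in order of log2 fold change, with open circles for the 2 ND arrays, filled circles for the 2 HD arrays and a star for an adjusted p under 0.05 from limma. The HD circles lie to the right of the ND circles in 25 rows and to their left in 11.

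**Figure D2:**
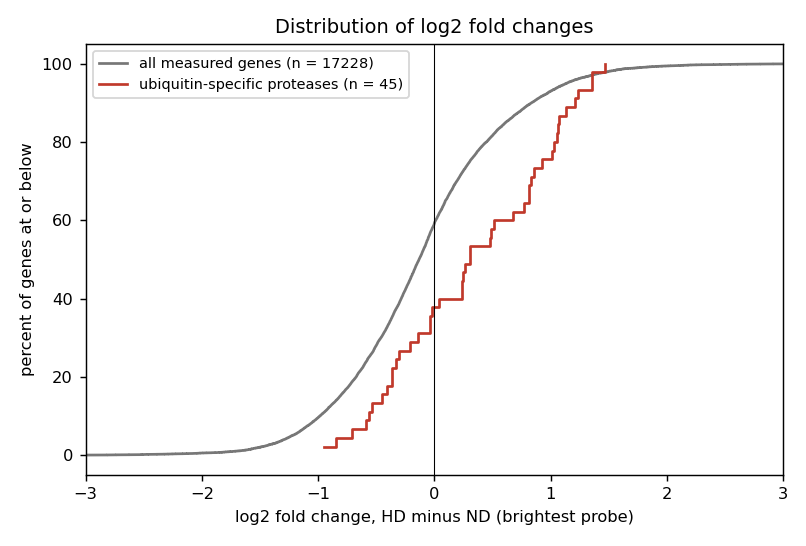
Cumulative percent of genes against log2 fold change, HD minus ND, for the 45 ubiquitin-specific proteases (red) and the 17228 genes (grey) above 50 on 1 or more arrays. The red line lies to the right of the grey line over most of the range, with medians of 0.30 and -0.13.

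The 2 calling rules did not pick the same members. USP47, USP1 and USP8 were higher by the study's criteria only, and USP9X, USP44, USP13 and USP16 rose only at the adjusted threshold, with log2 fold changes under 1. Over the 78 probes, 17 rose and 1 fell at an adjusted p under 0.05, where 6.65% of all probes rose and 7.19% fell, and 17 were higher and 0 lower by the study's criteria, where 6.11% of all probes were higher and 6.27% lower. Both HD values lay above both ND values for 41 probes and below them for 14, where this held for 24.9% and 34.8% of all probes. Through any probe, 15 genes rose, the further 3 being USP14, USP31 and USP47. No adjusted call was left with any of the 4 arrays omitted, for these or any other genes. Those fits leave a lone array in one group, assumed to vary as the other group does. With robust eBayes, 2 genes rose rather than 12, USP46 and USP7, where 0.854% of all genes rose. Without HD replicate 1, 6 genes rather than 11 were higher by the study's criteria, where 4.42% of all genes were.

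Of the 3 proteases that work with WDR48, USP12 and USP46 rose, as WDR48 itself did, and USP1 was higher by the study's criteria. Among all genes 6.67% rose, and 6.16% were higher by those criteria. WDR48, also called UAF1, is a WD-repeat protein that binds USP1, USP12 and USP46 and raises their activity. USP46, which acts on glutamate receptors and on phosphatases of the AKT pathway, had intensities of 783 and 804 in ND cells and 1874 and 1871 in HD cells. The HD arrays were thus close to each other and well above the ND arrays (log2 fold change 1.24, standard error 0.022, adjusted p = 0.0229). USP12 is the closest paralog of USP46. Its brighter probe gave 1388 and 1600.4 in ND and 3743 and 3884 in HD cells, and its dimmer probe 81.1 and 89.0 against 184 and 194. Both probes rose, by 1.36 (standard error 0.095, adjusted p = 0.0368) and 1.15 (standard error 0.0706, adjusted p = 0.0351) on the log2 scale. USP1, which removes ubiquitin from FANCD2 and PCNA during DNA repair, was at 189.6 and 272 in ND and 561 and 492 in HD cells. These groups did not overlap, and the log2 fold change of 1.21 (standard error 0.247) met the study's criteria but not the adjusted threshold (adjusted p = 0.0876).

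WDR48 itself gave 1252 and 1500.0 in ND cells and 2896 and 2958 in HD cells (log2 fold change 1.09, standard error 0.117, adjusted p = 0.0451). It was the only 1 of 14 listed cofactors of the family that was higher by the study's criteria, where 6.16% of all genes were. WDR20, which further activates USP12 and USP46, was at 2308 and 2571 in ND and 2356 and 2355 in HD cells (log2 fold change -0.05, standard error 0.0705, adjusted p = 0.732). DMWD, a relative of WDR20, did not pass, at -0.61 on the log2 scale (adjusted p = 0.0558). USP46 has a dimmer probe that did not follow the brighter, with 369.7 and 507 in ND and 549.9 and 462 in HD cells, so that the groups overlapped.

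**Figure D3:**
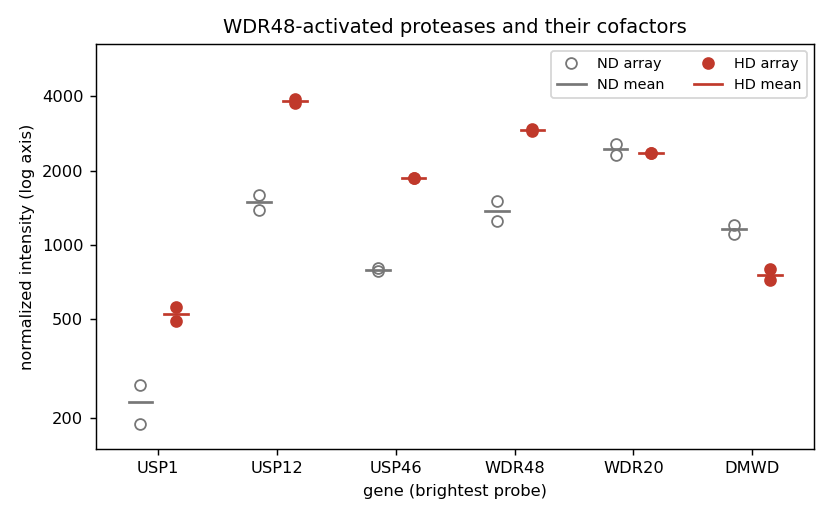
Normalized intensity on a log axis of USP1, USP12, USP46 and 3 of their cofactors, brightest probe of each gene, with open grey circles for the 2 ND arrays, filled red circles for the 2 HD arrays and a bar at each group's mean. The HD arrays lie above the ND arrays for USP1, USP12, USP46 and WDR48, inside the ND range for WDR20 and below it for DMWD.

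The promoter windows of these 3 genes, and of USP34 and USP38, which also had log2 fold changes above 1, are shown as examples. Each runs from 250 bases before to 50 after the RefSeq start on GRCh38.p14, 5′ to 3′ on the gene's strand, and capitals mark GGGCGG, the core of GC boxes bound by Sp1-like factors, and CCGGAAG, a core bound by ETS factors, on either strand. The windows lie at chr1:62436145-62436444 (plus strand) for USP1, chr13:27171762-27172061 (minus) for USP12, chr4:52659252-52659551 (minus) for USP46, chr2:61471038-61471337 (minus) for USP34 and chr4:143184667-143184966 (plus) for USP38.
USP1: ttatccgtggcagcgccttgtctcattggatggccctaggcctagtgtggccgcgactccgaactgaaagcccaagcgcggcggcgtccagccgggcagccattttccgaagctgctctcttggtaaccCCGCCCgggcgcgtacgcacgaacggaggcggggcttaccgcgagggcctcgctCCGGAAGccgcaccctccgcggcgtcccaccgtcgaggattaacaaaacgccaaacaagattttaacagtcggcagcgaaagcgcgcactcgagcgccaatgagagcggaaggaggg
USP12: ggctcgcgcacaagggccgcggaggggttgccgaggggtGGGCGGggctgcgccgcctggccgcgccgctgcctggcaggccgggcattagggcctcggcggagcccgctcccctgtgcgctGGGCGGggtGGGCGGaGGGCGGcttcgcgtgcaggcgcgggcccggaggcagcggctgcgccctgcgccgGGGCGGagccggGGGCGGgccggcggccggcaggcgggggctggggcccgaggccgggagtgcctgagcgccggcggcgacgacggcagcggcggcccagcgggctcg
USP46: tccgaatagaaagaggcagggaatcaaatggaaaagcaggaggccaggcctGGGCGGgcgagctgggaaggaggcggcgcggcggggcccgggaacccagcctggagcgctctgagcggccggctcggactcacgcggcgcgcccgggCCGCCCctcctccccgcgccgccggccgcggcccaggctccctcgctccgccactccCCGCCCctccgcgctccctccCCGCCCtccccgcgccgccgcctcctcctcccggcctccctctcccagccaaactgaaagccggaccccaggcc
USP34: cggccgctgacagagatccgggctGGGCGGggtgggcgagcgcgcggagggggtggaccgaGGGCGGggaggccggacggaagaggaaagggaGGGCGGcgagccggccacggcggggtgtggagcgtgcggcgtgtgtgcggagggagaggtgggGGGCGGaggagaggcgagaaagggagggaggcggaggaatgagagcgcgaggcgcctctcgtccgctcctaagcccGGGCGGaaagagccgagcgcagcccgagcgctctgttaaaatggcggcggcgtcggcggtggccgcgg
USP38: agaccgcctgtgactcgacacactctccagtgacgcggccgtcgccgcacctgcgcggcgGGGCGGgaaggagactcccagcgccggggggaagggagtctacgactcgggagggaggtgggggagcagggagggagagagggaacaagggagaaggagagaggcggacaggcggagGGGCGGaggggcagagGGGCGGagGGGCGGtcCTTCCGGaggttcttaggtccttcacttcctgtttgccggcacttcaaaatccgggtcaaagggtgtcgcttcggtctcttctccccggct

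A promoter window was found for 36 of the 47 genes. Those of USP6, USP7, USP8 and USP47, which also had log2 fold changes above 1, are not shown. GGGCGG occurred on either strand in 28 of the 36, or 77.8%, and in 58.5% of 15843 protein-coding genes with a window of the same length. It occurred in 6 of the 8 risen members with a window, with 6 copies in USP12 and 4 in USP46. The risen USP7 and USP16 lacked it, as did USP47. CCGGAAG occurred in 9 of 36 members, or 25%, and in 14.2% of protein-coding genes, and the 9 hold USP1 and USP38 as well as USP11 and USP35, whose values were lower in HD cells. CAATAAA and TAATAAA, AT-rich cores of the kind that posterior HOX proteins bind, occurred on neither strand in any of the 36 windows, against 2.82% and 2.77% of protein-coding genes. Searches covered both strands, and no marked motifs overlapped in the windows shown. Median G and C content was 69.7% in the members and 62.7% in protein-coding genes. A match describes only these letters.

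Members that act on MDM2 and p53 were higher or differed little. USP7 has 3 probes and each was higher in HD cells. The brightest gave 2045 and 2105 in ND cells and 4397 and 4212 in HD cells (log2 fold change 1.05, standard error 0.0358, adjusted p = 0.0266). The other probes gave 440.4 and 499 against 805 and 749.7, and 129 and 128 against 191 and 167, with log2 fold changes of 0.73 and 0.47 that did not pass (adjusted p = 0.0513 and 0.0794). In no probe of USP7 did the groups overlap. USP24, a very large protease whose reported substrates include p53, was at 1069 and 1168 in ND and 2495 and 2223 in HD cells and rose by 1.08 (standard error 0.0938, adjusted p = 0.0407). USP28, known for stabilising MYC, had a log2 fold change of 0.47 (adjusted p = 0.0644), and USP42 had 0.23 and 0.32 on its probes, neither of which passed. GMPS, which binds and activates USP7, gave 5834 and 6138 in ND and 7199.6 and 5563 in HD cells, which overlap.

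Of 6 proteases of growth and immune signalling, USP34 and USP9X rose on their brightest probe and 0 fell. Among all genes 6.67% rose and 7.97% fell. USP47 was higher by the study's criteria on that probe, and the group also holds USP40, USP2 and USP25. USP34, which stabilises axin in Wnt signalling, gave 416 and 522 in ND and 1200.1 and 1378 in HD cells (log2 fold change 1.47, standard error 0.171, adjusted p = 0.0479). It had the largest log2 fold change among the brightest probes of the 47 genes. USP47, which acts on DNA polymerase beta, gave 602 and 726 against 1857 and 1544 on its brighter probe and 134 and 161 against 362 and 348 on the dimmer. The dimmer probe rose by 1.28 (adjusted p = 0.042), and the brighter, at 1.36, narrowly missed the threshold (adjusted p = 0.0504). USP9X, whose substrates include the survival factor MCL1, was the brightest risen member, at 10241 and 10333 in ND and 17663 and 18916 in HD cells. Its log2 fold change was 0.83 (standard error 0.0463, adjusted p = 0.0339) as deposited, and quantile and cyclic loess normalization moved it to 1.22 and 1.26. The dimmer probe of USP9X had 0.21 (adjusted p = 0.252), with HD values of 1388 and 1255 just above ND values of 1196 and 1081.

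USP40, a paralog of USP47, was discordant between its probes. The brighter gave 622 and 732 in ND and 888 and 722 in HD cells, which overlap, and the dimmer 295 and 385 against 1059.8 and 859.5, a 2.83-fold difference that met the study's criteria only (adjusted p = 0.0574). USP2, a protease that stabilises cyclin D1, was lower, at 1434 and 1441 in ND and 898 and 716 in HD cells, and its log2 fold change of -0.84 (standard error 0.145) did not pass (adjusted p = 0.0708). Its dimmer probe was near the lowest value and overlapped between groups, at 52.8 and 79.0 against 57.8 and 56.0. USP25 lay near the lowest value on every array and its groups overlapped.

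Proteases of histones and the nucleolus had values in both directions, with 2 of 8 risen, none fallen and a median log2 fold change of 0.13, where 6.67% of all genes rose. USP16, which removes ubiquitin from histone H2A, gave 434 and 452 in ND and 806 and 708 in HD cells and rose by 0.77 (standard error 0.0879, adjusted p = 0.047). Its dimmer probe overlapped between the groups, at 153 and 104 against 109 and 116. USP44, which acts on histone H2B and in the spindle checkpoint, was dim, at 136 and 119 against 215 and 231, and rose by 0.81 (adjusted p = 0.0489). USP3, another H2A protease, did not pass, at 0.67 (adjusted p = 0.0763). USP22, the catalytic subunit of the SAGA deubiquitinase module, was among the brightest members at 31875 and 41416 in ND and 36922 and 34116 in HD cells, and the HD values lay inside the ND range. USP51, a relative of USP22, was lower on both probes, with log2 fold changes of -0.45 and -0.52 (adjusted p = 0.0596 and 0.088) and no overlap of the groups. Of the other subunits of that module, ATXN7 rose by 0.48 (adjusted p = 0.0459), and ATXN7L3 and ENY2, with log2 fold changes of 0.19 and -0.74, did not pass. The nucleolar protease USP36 had -0.40 and 0.32 on its probes, and USP21 had 0.26 and -0.27, and none of these 4 values passed.

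Of 3 members in the group of ubiquitin recycling, USP13 alone rose on its brightest probe, where 6.67% of all genes rose. The result for USP14 depended on the probe. USP13, a paralog of USP5, gave 836 and 911 in ND and 1609.7 and 1453 in HD cells on its brighter probe, and 432 and 420.2 against 923 and 832 on the dimmer. Both probes rose, by 0.81 (standard error 0.0866, adjusted p = 0.0451) and 1.04 (standard error 0.0699, adjusted p = 0.0361). USP5 itself, which takes apart free ubiquitin chains, was at 1749 and 1822 against 1873 and 1656, with a log2 fold change of -0.02 and overlapping groups. USP14 is bound to the proteasome and trims chains from its substrates. Its brighter probe was lower in HD cells, at 9419.8 and 8668 against 7398 and 6689, and did not pass (log2 fold change -0.36, adjusted p = 0.106). The dimmer probe went the other way, from 289 and 287 to 813 and 790.2, and rose by 1.48 (standard error 0.0227, adjusted p = 0.0229). The sources used here do not say which part of the USP14 transcript each probe reads.

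Members with a DUSP domain, a fold named after these proteases, held no called gene among 6, where 6.67% of all genes rose and 7.97% fell. USP33, first described as a partner of the VHL tumour suppressor, was closest to the threshold among those above 0, at 1983 and 2447 in ND and 3998 and 4393 in HD cells (log2 fold change 0.93, standard error 0.148, adjusted p = 0.0642). Its paralog USP20 overlapped between groups, at 399 and 375 against 354 and 403. USP11, which acts in DNA repair with BRCA2, was the brightest member and the one with the largest decrease, at 72445 and 84251 in ND and 37636 and 43252 in HD cells. Its log2 fold change of -0.95 (standard error 0.132) did not pass (adjusted p = 0.0552), and quantile and cyclic loess normalization brought it to -0.20 and -0.22. The paralogs of USP11 moved less, with -0.31 and -0.05 on the probes of USP4 and -0.37 and 0.29 on those of USP15. USP48 had 0.30 on each of its probes.

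Among 4 proteases of membranes and organelles, USP6 alone rose on its brightest probe, where 6.67% of all genes rose. USP6, an oncogene with a TBC domain, was at 561 and 533 in ND and 1235 and 1054 in HD cells (log2 fold change 1.06, standard error 0.107, adjusted p = 0.0435). The gene shares much of its sequence with USP32, from which its protease part derives, so whether its probe reads USP6 alone is uncertain. USP8, which works on receptors at endosomes, was dim at 88.7 and 117 in ND and 207 and 208 in HD cells and met only the study's criteria, with 1.03 (adjusted p = 0.0703). STAM2, an adaptor that holds USP8 at endosomes, rose by 0.61 (adjusted p = 0.0484). USP30 of the mitochondrial outer membrane gave 471 and 561 against 396 and 423, and the tail-anchored USP19 overlapped between groups, and neither passed.

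USP37, which acts on cyclin A, rose by 1.13 (standard error 0.094, adjusted p = 0.0398), from 521 and 569 in ND to 1265 and 1128 in HD cells. Its dimmer probe had 0.83 (adjusted p = 0.0692) with no overlap of the groups. Its relatives USP26 and USP29, mostly expressed in testis, were dim, at 106 and 163 against 84.1 and 90.7 for USP26 and, as above, at 50 on 3 arrays for USP29. USP38 rose by 1.02 (standard error 0.122, adjusted p = 0.049), from 1686 and 1454 to 3356 and 2985, while its paralog USP35 was lower, with -0.56 (adjusted p = 0.106), at 1712 and 1719.5 against 1289 and 1051. USP43 had 0.86 (adjusted p = 0.104) and USP45 had 0.24 and 0.18 on the probes above the lowest value. USP31, the paralog of USP43, had probes of both directions. The brightest gave 1431 and 1533 against 2295 and 1876, the second rose from 549.8 and 628 to 1617 and 1509.7, by 1.41 (adjusted p = 0.0364), and the dimmest fell by 0.49 (adjusted p = 0.0386) from 72.6 and 69.0 to 51.0 and 50. That last probe was at or near the lowest value in HD cells.

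USP18, which removes the ubiquitin-like modifier ISG15 and is induced by interferon, was lower in HD cells. Its probes gave 1468 and 1706 against 919.6 and 1018, and 1309 and 1284 against 1241 and 1040.1, with log2 fold changes of -0.71 and -0.19 (adjusted p = 0.0664 and 0.378). The pseudogene USP41P is nearly identical to part of USP18, so these probes may read both. The 4 members without a working protease or with an atypical one were not called, where 6.67% of all genes rose and 7.97% fell. USP39, a spliceosome subunit without protease activity, was at 32534 and 38583 in ND and 24185 and 24539 in HD cells, with a log2 fold change of -0.54 (adjusted p = 0.0877) that became 0.05 under both quantile and cyclic loess normalization. USP53 had 0.52 and 0.50 on its probes above the lowest value, and USP54 had 0.04 and -0.05.

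Several measured probes, that is, probes above 50 on 1 or more arrays, were available for 25 genes. In 18 of them all such probes had the same sign, above 0 in 14 and below 0 in 4, and the median spread between the highest and lowest probe of a gene was 0.53 on the log2 scale. USP31, USP14, USP40 and USP46 had spreads over 1, at 1.90, 1.84, 1.25 and 1.02. Only USP12 and USP13 had more than 1 risen probe. With the mean of all probes of a gene in place of the brightest, 13 genes rose, 2 fell and 7 rather than 11 were higher by the study's criteria, where 8.55%, 9.82% and 4.97% of all genes did or were.

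**Figure D4:**
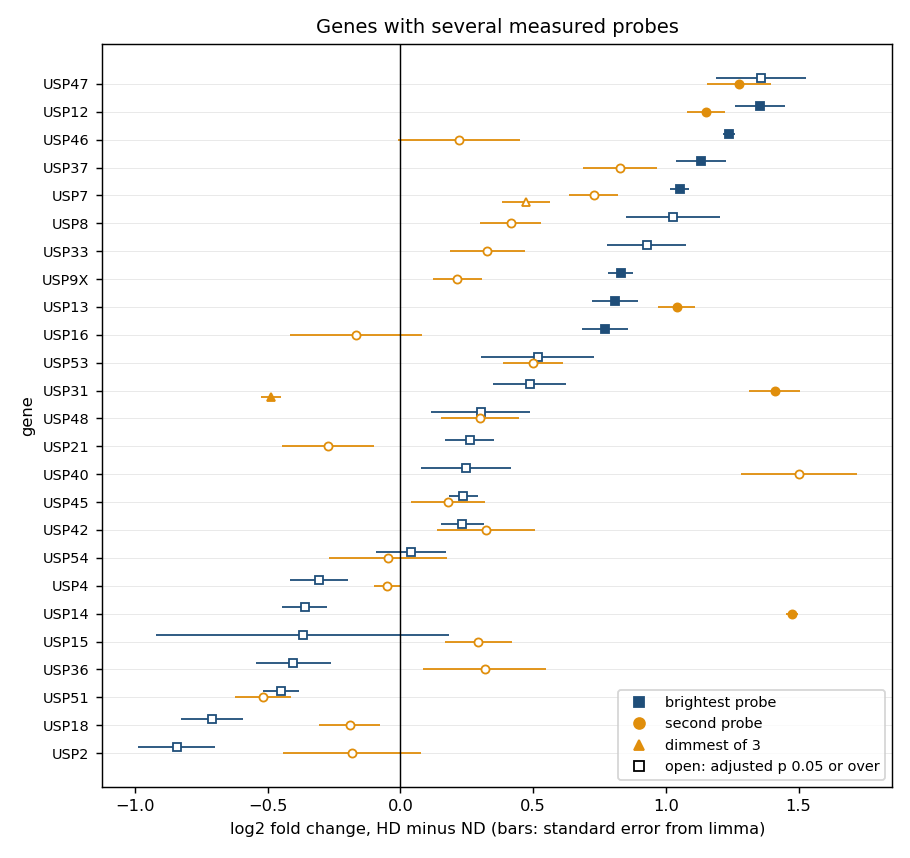
Log2 fold change, HD minus ND, of each measured probe of the 25 genes with several such probes, with bars for the standard error from limma, squares for the brightest probe, circles for the second, triangles for the dimmest of 3 and filled symbols for an adjusted p under 0.05. USP31, USP14, USP40 and USP46 have the widest spreads between probes, from 1.90 down to 1.02.

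Risen members were found across most of the range of brightness and of genomic span. Of the 21 genes with a mean log2 intensity from 10 to 12, 6 rose, where 11.1% of all measured genes of that brightness did, and of the 10 genes from 8 to 10, 4 rose, where 9.71% did. The median log2 fold change was 0.52 and 0.51 in these classes, where all measured genes had -0.05 in both. Of the 7 dimmer members 1 rose, USP44, where 4.65% of such genes did, and of the 4 members from 12 to 14, 1 rose, USP9X, where 6.05% did. Of the 3 members at 14 or above, USP11, USP22 and USP39, none rose, where 1.92% of genes that bright did, and their median was -0.54 where all had -0.69. The median genomic span was 68.3 kb for the 47 members and 24.7 kb for all genes, by RefSeq on GRCh38.p14. Of 10 members from 100 to 200 kb, 5 rose, with a median of 0.82, where 13.8% of all measured genes of that span rose, with a median of 0.12. Of 15 members from 60 to 100 kb, 2 rose, where 12.2% of genes did, and of 12 from 20 to 60 kb, 4 rose, where 8.60% did. The median was 0.49 in the former and -0.20 in the latter, where all genes had 0.09 and -0.05. Of 7 members under 20 kb none rose, where 3.31% of genes did, with a median of -0.15 where all genes had -0.30. The remaining measured member, USP34, spans over 200 kb. Spearman's rho between span and log2 fold change was 0.46 over 45 members and 0.28 over 17228 genes, given as a description since the genes share the same 4 arrays. A further list held 52 genes with a probe and long transcripts, which tend to respond to the quality of the RNA. Of these, 1 was at 50 on all arrays. In this list 16 genes rose and 0 fell, with a median of 0.65. Among all genes 6.67% rose and 7.97% fell, with a median of -0.05. In the family 12 of 47 genes, or 25.5%, rose and 0 fell, with a median of 0.26. The summed intensity of the long-transcript list was 103585 and 110123 in ND against 168449 and 154146 in HD cells. The part of transcript length or RNA quality in the family's result was not tested.

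**Figure D5:**
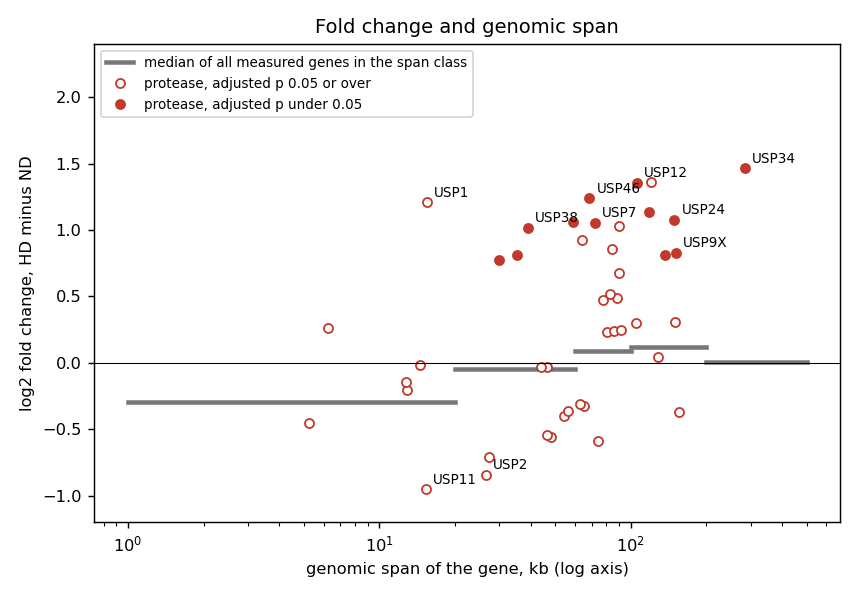
Log2 fold change, HD minus ND, against genomic span in kb on a log axis for the 45 measured members, filled where the adjusted p was under 0.05 from limma, with grey bars for the median of all measured genes in 5 span classes. Members from 100 to 200 kb had a median of 0.82 and those under 20 kb a median of -0.15, where the grey bars lie at 0.12 and -0.30.

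Genes that act beside the family were called in both directions, where 6.67% of all genes rose and 7.97% fell. Of 37 deubiquitinases and related proteins of other families with a probe, 3 of them at 50 on all arrays, 4 rose, 2 fell and 31 were not called at an adjusted p under 0.05, with a median log2 fold change of 0.08. The risen genes were OTUD4 (1.27), ZUP1 (1.03), which cuts K63-linked chains, ATXN3 (0.91), the Josephin protease of Machado-Joseph disease, and USPL1 (0.66), a SUMO protease with a fold like that of the family. OTUB1, an abundant protease of K48-linked chains, fell from 9699 and 9067 to 4201 and 3692, that is by 1.25 on the log2 scale (adjusted p = 0.0377), and MINDY1, which also prefers K48-linked chains, had -0.58 (adjusted p = 0.0334). Of 14 cofactors, 3 rose and ATXN7L2 fell by 0.41 on the log2 scale (adjusted p = 0.0456), and of 7 genes for ubiquitin and E1 enzymes with a probe, UBA7 was at 50 on all arrays and none passed. UBB, a polyubiquitin gene, was at 398949 and 435780 in ND and 301599 and 281045 in HD cells, with -0.52 (adjusted p = 0.0565). Over these 58 genes together, 7 rose and 3 fell, where 6.67% and 7.97% of all genes did.

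Other normalizations kept more risen than fallen members but moved the counts. At an adjusted p under 0.05, 18 members rose and 1 fell after quantile normalization, where 12.5% of all genes rose and 10.7% fell. After cyclic loess normalization 23 rose and 4 fell, where 18.5% and 14.9% did, and after scaling to the 75th percentile 19 rose and 6 fell, where 15.3% and 20.5% did. The share of higher genes among all genes called by the study's criteria was 47.4% with the deposited values, 63.5% after quantile, 60.9% after cyclic loess and 43.2% after 75th percentile scaling. The median of the members was 0.34, 0.33 and 0.25 under these 3 normalizations, and that of all genes 0.00, 0.03 and -0.06.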

How the data were processed

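Total RNA of TOV112D cells was amplified, Cy5-labelled and put on Human Whole Genome OneArray v7 arrays, which have 1 colour. The authors scanned the slides, read them with GenePix 4.1 and preprocessed them in Rosetta Resolver with centring at the 75th percentile, and deposited the normalized intensity of each probe, unlogged and never under 50. The arrays share their median instead of their 75th percentile. Nothing is stated on background correction. HD was set against ND on log2 of the deposited intensities by limma 3.58.1 (lmFit, eBayes; R 4.3.3) over 28264 probes, with Benjamini-Hochberg adjustment over all of them, no block, 2 residual and 0.543 prior degrees of freedom. Every adjusted p in the text comes from this fit unless another setting is named. Symbols came from the platform annotation (25893 probes with 1 symbol, 2371 with none, none with several), and each gene was read from the probe that was brightest on average over the arrays. The members, role groups and lists were chosen with earlier results of these data known. Named were members with a called probe, with probes differing by over 1 on the log2 scale, USP7, USP9X and USP46, members at the lowest value, and examples of each role group. Promoters and spans came from RefSeq (GRCh38.p14). The fit was tested on simulated data with independent normal noise and no lowest value of 50, so values held at 50 were not covered. Alternatives covered normalization, a pseudocount of 50, a filter, variance models, a replicate block, omitted arrays and averaged probes. Protein sequences were not used here, and 2 arrays per group limit the precision.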

Additional observations from a re-analysis of the deposited data

How the results depend on the processing

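Calls of risen and fallen genes here are from limma at an adjusted p under 0.05. With an array left out, the median log2 fold change of the members ran from 0.17 to 0.37. Under quantile normalization, cyclic loess, 75th percentile scaling and a filter to probes above 50 on at least 2 arrays, in that order, 18, 23, 19 and 18 members rose and 1, 4, 6 and 4 fell, against 12 and 0, while 12, 21, 15 and 14 pathway genes rose and 5, 5, 8 and 6 fell, against 7 and 3. Under these settings, in the same order, 12.5%, 18.5%, 15.3% and 16.5% of all genes rose and 10.7%, 14.9%, 20.5% and 24.1% fell. The filter tests fewer probes, and why the counts moved was not tested for any of these settings. Averaging all probes of a gene gave 2 fallen members and 7 higher by the study's criteria, where 9.82% of all genes fell and 4.97% were higher. It also gave 6 fallen pathway genes. Robust eBayes left 2 risen members, USP46 and USP7, and 0 pathway genes in either direction, where 0.854% of all genes rose. The replicate numbers are not known to pair the arrays. With them as a replicate block, 0 members and 0 pathway genes rose or fell, and the smallest adjusted p over all genes was 0.142 (limma). In that fit 10 members were higher by the study's criteria, where 5.57% of all genes were. Deviations of same-numbered arrays correlated at -0.323. With the numbers crossed, an alternative added after the data were seen, 0 members rose or fell. By the study's criteria 11 members were higher in the crossed fit, where 5.95% of all genes were. With 50 added before the log2, 13 members rose, where 6.97% of all genes did. Under every setting run the median of the members lay above that of all genes. The variance models and the replicate blocks cannot move these medians, so only the other settings bear on them. USP39 changed sign, to 0.046 and 0.054, after quantile and cyclic loess normalization, and without ND replicate 1 the dimmer probes of USP16 and USP46 did, to 0.11 and -0.0073. Leaving out each array in turn gave -0.45 to 0.11 for that USP16 probe and -0.0073 to 0.45 for that USP46 probe. None of these 3 probes was called with the deposited values, though USP39 fell with 75th percentile scaling (adjusted p = 0.0296). Under quantile normalization the fall of the dimmest USP31 probe was lost (adjusted p = 0.248), as it was under the filter (0.0658), and USP16 and USP44 missed the threshold with an intensity trend in eBayes (0.0539 and 0.0502). Intensities at 50 carry no order, and members near it, USP25, USP26 and USP29 among them, are limited by signal over background.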
